A study of Mus musculus with 10 samples.

Results

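The solute carrier families Slc4, Slc8, Slc9, Slc12 and Slc26 move ions across epithelial membranes, and 38 of their genes are described here in mouse UB organoids, CD organoids and adult mCD cells. Members were taken by name from a table of 39273 genes, as every gene of these families except *Slc4a1*, *Slc4a9*, *Slc26a4* and *Slc26a7*, which mark intercalated cells (IC) or belong with them. They comprise 8 genes of Slc4, 3 of Slc8, 9 of Slc9, 9 of Slc12 and 9 of Slc26. Of these, 36 were tested, and *Slc26a3*, an intestinal chloride-bicarbonate exchanger, and *Slc26a5*, the motor protein of outer hair cells, had too few counts in every group.

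Slc4 proteins carry bicarbonate, in exchange for chloride or together with sodium, and set the pH of cells and blood. Slc8 proteins exchange sodium for calcium, Slc9 proteins exchange sodium or potassium for protons, Slc12 proteins carry chloride together with sodium or potassium, and Slc26 proteins carry chloride, sulfate, bicarbonate or oxalate. In the kidney the members are divided among segments. *Slc9a3*, *Slc4a4*, *Slc26a1* and *Slc26a6* serve mainly the proximal tubule, *Slc12a1*, *Slc9a2* and *Slc9a4* the thick ascending limb, *Slc12a3* the distal convoluted tubule, *Slc8a1* the connecting tubule, and *Slc4a8*, *Slc26a11*, *Slc12a7*, *Slc12a2* and *Slc4a2* are known in the collecting duct. These are main sites from textbook background and not results, and a member may also be present in other segments. The first 8 genes named were assigned to segments upstream of the connecting tubule and collecting duct.

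Each of the 5 groups had 2 libraries. UB organoids were grown from ureteric buds of E11.5 embryos, of *Wnt11*-RFP +/- genotype on a C57BL/6 x Swiss Webster background, and were kept for 5, 10 or 20 days in UB culture medium (UBCM). CD organoids were day 10 UB organoids kept for a further 7 days in CD differentiation medium (CDDM), which holds FGF9, Y27632, DAPT, PD0325901, aldosterone and vasopressin. Adult mCD cells were sorted by FACS for Venus, which the *Hoxb7* promoter drives in the ureteric bud and the ducts made from it, from mice about 2 months old. The sample labels give the adult libraries the embryonic age and the *Wnt11*-RFP genotype of the organoids, and the series' design text was followed instead. The adult cells thus differ from the organoids in genotype, age, culture and sorting together, and these cannot be told apart. Nothing says whether the libraries of a group came from separate cultures or animals, so the p-values measure only the spread between these libraries.

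The libraries held 11913613 to 24536676 counts, and 3 counts, taken as the limit of detection, equalled 0.109 to 0.241 CPM, the counts relative to a library's TMM-scaled total, a limit that covers counting error only. The ureteric bud tip list summed to 2081 to 3787 CPM in UB organoids and to 128 and 130 CPM in CD organoids, and the IC list to at most 6.34 CPM in UB organoids, 1942 and 2032 CPM in CD organoids and 2641 and 2734 CPM in adult mCD. Principal cell (PC) markers summed to at most 226 CPM in UB organoids, 1496 and 1334 CPM in CD organoids and 11985 and 11516 CPM in adult mCD. Stroma markers summed to at most 29.0 CPM in UB organoids and to 216 and 103 CPM in CD organoids. In adult mCD, proximal tubule markers also reached 5110 and 6243 CPM, with all 8 of 8 above the limit of detection. The 5 thick ascending limb markers summed to 2199 and 2336 CPM and the 4 distal convoluted tubule markers to 2122 and 2196 CPM in the same adult libraries. Each of these 2 sums came mostly from 1 gene, *Umod* (1998 and 2123 CPM) and *Egf* (1703 and 1777 CPM). Defining markers of these segments were thus present in the sorted adult cells, and fewer cells of a type and less RNA per cell cannot be told apart in such bulk libraries.

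Summed over the 38 members, the mean and SD of the 2 libraries were 899 ± 23.2 CPM for day 5, 941 ± 13.1 CPM for day 10, 1102 ± 16.9 CPM for day 20, 1567 ± 22.3 CPM for CD organoids and 4459 ± 161 CPM for adult mCD. The 8 members of the upstream segments made up 61.3% of the adult sum but 8.04% to 10.2% of the sum in the organoid groups. These 8 summed to 126 CPM in CD organoids, of which *Slc9a2* had 69.8 CPM, and to 2736 CPM in adult mCD. By contrast, the 6 members of the connecting tubule and collecting duct summed to 908 ± 15.6 CPM in CD organoids, against 973 ± 18.6 CPM for adult mCD (SD, n = 2 each). That order rests on the TMM factors, since with library totals alone the sums were 946 ± 9.49 and 771 ± 16.0 CPM. It also rests on *Slc8a1*, the connecting tubule member. With TMM factors the 5 collecting duct members alone summed to 556 ± 16.2 CPM in CD organoids and 512 ± 9.39 CPM in adult mCD. Adult mCD was the group with the highest mean for 24 of the 38 members, and both adult libraries lay above the other 8 for 23 of the 36 tested, against 23.4% of all genes tested.

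**Figure D1:**
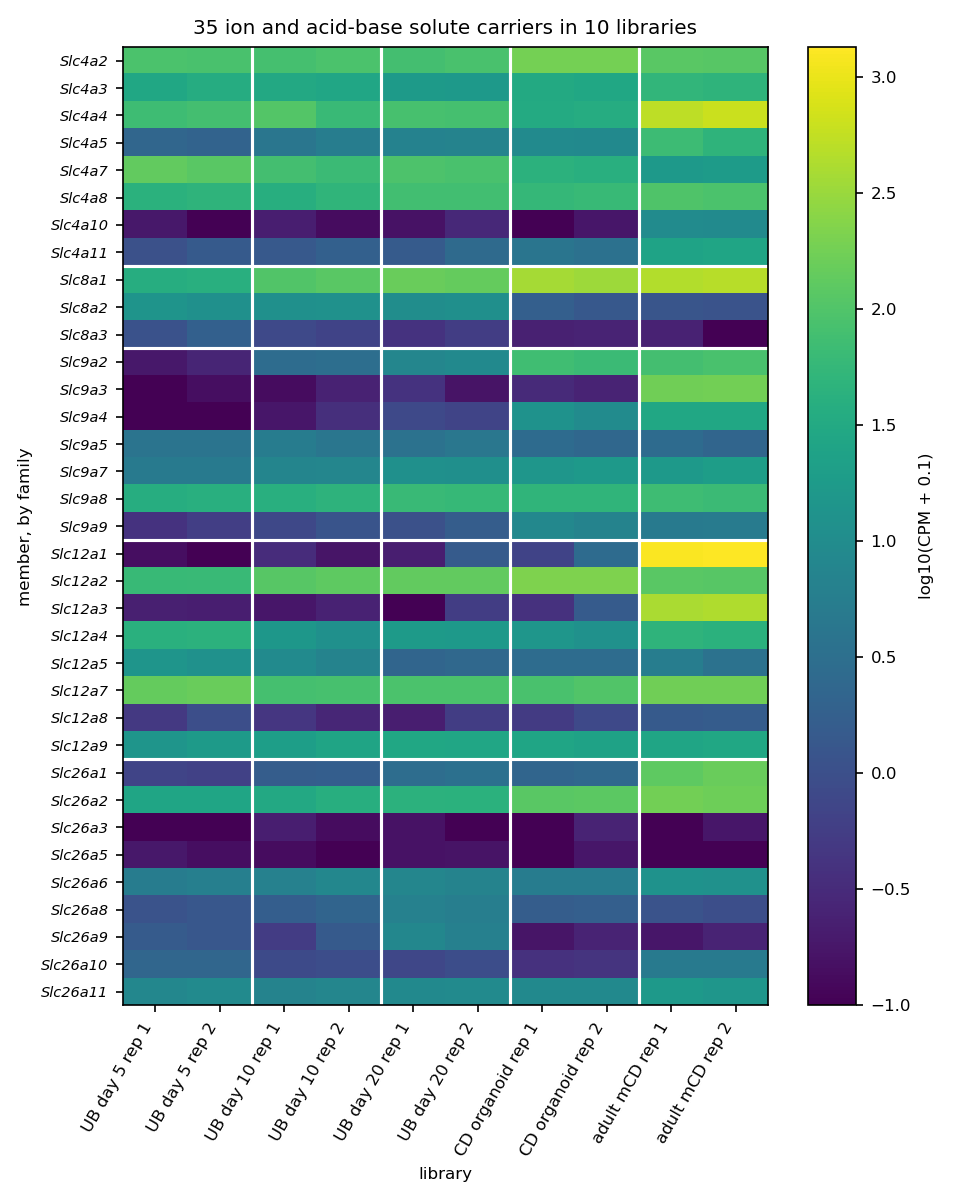
Heat map of 35 of the members (rows, by family) in the 10 libraries (columns), coloured by log10(CPM + 0.1). *Slc12a1*, *Slc12a3*, *Slc9a3* and *Slc26a1* are bright only in the adult mCD columns, whereas *Slc4a2* and *Slc12a7* are bright in all 10 libraries.

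**Figure D2:**
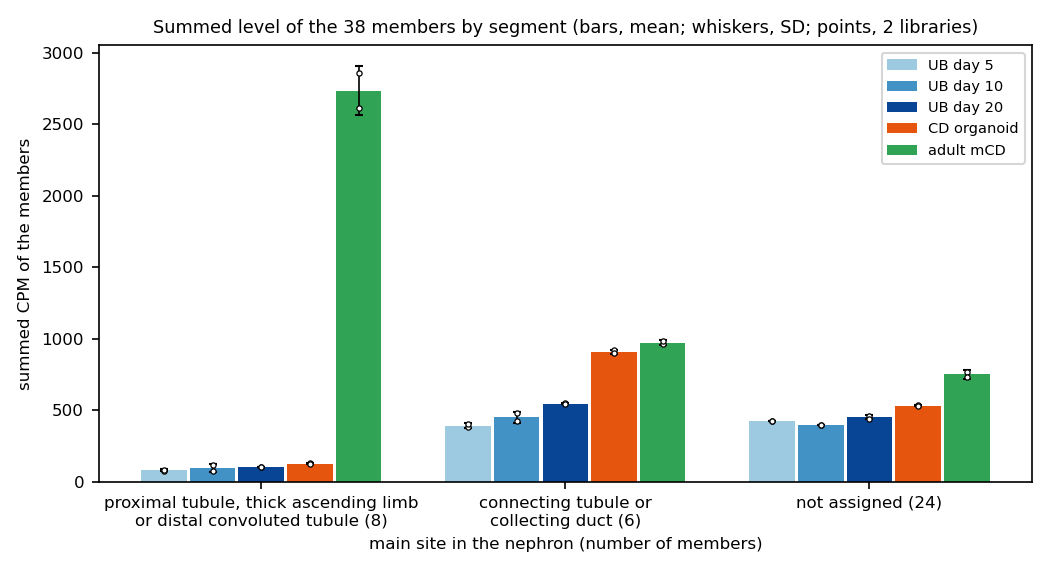
Summed CPM of the members by their main site in the nephron, with bars for the mean of a group, whiskers for the SD and points for the 2 libraries. The 8 members of the upstream segments rise from 126 CPM in CD organoids to 2736 CPM in adult mCD. The 6 members of the connecting tubule and collecting duct are at 908 and 973 CPM, an order that turns with library totals alone or without *Slc8a1*.

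The first comparison asked which carriers differ between UB organoids and CD organoids. Genes of the Y chromosome summed to at most 0.875 CPM at day 10 and to 290 and 295 CPM in CD organoids. The sequenced day 10 organoids can thus not be taken as the very cultures from which the CD organoids came. Day 5 and day 10 libraries were also deeper, with at least 22858971 counts against at most 16759872 in the other groups. A member counted as called where edgeR's quasi-likelihood test, after Benjamini-Hochberg adjustment over 24410 genes, gave a p no higher than 0.01 and the level changed over 4-fold. Between day 10 UB organoids and CD organoids 6 of the 36 members tested were called, of which CD organoids had 4 at a higher and 2 at a lower level, against 10.7% of all genes tested (4.96% higher and 5.71% lower). Against day 20 UB organoids, 3 members were called higher and 2 lower, where 9.46% of all genes were called (4.74% higher and 4.73% lower). The 2 comparisons share the CD organoid libraries. The median log2 fold change of the members was 0.33 against day 10 and 0.07 against day 20, and that of all genes -0.15 and 0.00.

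*Slc9a2* and *Slc9a4*, which encode the sodium-proton exchangers NHE2 and NHE4, gained most. *Slc9a2* was at 0.0854 and 0.163 CPM at day 5, 2.77 and 2.99 at day 10, 7.89 and 8.92 at day 20, 74.0 and 65.6 in CD organoids and 77.0 and 87.5 in adult mCD. The groups did not overlap, and *Slc9a2* rose at every step up to CD organoids. Its log2 fold change was 4.04 from day 5 to day 10 (SE 0.31, adjusted p = 3.71e-07, edgeR), 4.57 from day 10 to CD organoids (SE 0.13, adjusted p = 1.24e-11, edgeR) and 3.05 from day 20 to CD organoids (SE 0.12, adjusted p = 2.97e-10, edgeR). Between CD organoids and adult mCD it differed by 0.24 (SE 0.10, adjusted p = 0.0711, edgeR), with an interval of 2 SE from 0.03 to 0.44, and by -0.16 when libraries were scaled by their totals alone. The day 5 level came from 2 and 4 counts, and with a prior count of 5 the change to day 10 was 2.995. CD organoid libraries held 79.7% and 89.9% of the adult mean.

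*Slc9a4* had 0 counts in both day 5 libraries and stood at 0.0793 and 0.255 CPM at day 10, 0.728 and 0.595 at day 20, 12.4 and 9.70 in CD organoids and 28.2 and 28.6 in adult mCD. It too rose without overlap at every step after day 5. The increase to CD organoids was 5.63 from day 10 (SE 0.33, adjusted p = 1.00e-08, edgeR) and 3.95 from day 20 (SE 0.29, adjusted p = 1.44e-07, edgeR) on the log2 scale. The day 10 level came from 2 and 7 counts, which limits the precision of its fold change. *Slc9a2* and *Slc9a4* are neighbours on chromosome 1 of GRCm38 in the GENCODE M21 annotation, on the same strand, with *Slc9a4* from 40580081 to 40630725 and *Slc9a2* from 40680574 to 40769273, 49.8 kb apart. The members hold only 2 other pairs within 1 megabase, *Slc9a3* with *Slc12a7* and *Slc9a5* with *Slc12a4*.

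Both genes were assigned to the thick ascending limb as their main site, and the 5 markers of that segment went different ways. *Umod* was at 0.641 and 2.41 CPM in CD organoids against 1998 and 2123 in adult mCD, and *Cldn16* at 0.285 and 0.481 CPM against 20.7 and 20.0. *Cldn19* was at 0.570 and 0.160 CPM against 49.7 and 52.6. Among the organoids, *Cldn10* went up with the 2 carriers only in the step to CD organoids, which had 6.48 and 5.69 CPM. Its day 5 libraries (1.02 and 2.16 CPM) lay above those of day 10 (0.555 and 0.365 CPM) and day 20 (0.546 and 0.661 CPM). Adult mCD had 98.3 and 108 CPM of it. The list summed to 148 and 157 CPM in CD organoids mostly through *Ppp1r1b*, which had 140 and 149 CPM there and 32.9 and 32.6 in adult mCD. In UB organoids *Ppp1r1b* rose from 22.2 and 30.8 CPM (day 5) to 67.9 and 66.7 CPM (day 10). Its day 20 libraries, with 66.2 and 73.2 CPM, overlapped those of day 10. The part of RNA from this segment in the *Slc9a2* and *Slc9a4* values was not tested.

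*Slc9a9*, an exchanger of endosomes, was called higher as well. It was at 0.299 and 0.490 CPM at day 5, 0.674 and 1.09 at day 10, 0.971 and 1.52 at day 20, 8.40 and 6.82 in CD organoids and 4.67 and 5.11 in adult mCD. CD organoids exceeded every other group without overlap. The log2 fold change was 3.02 against day 10 (SE 0.31, adjusted p = 1.64e-06, edgeR) and 2.57 against day 20 (SE 0.32, adjusted p = 1.22e-05, edgeR), and the difference between adult mCD and CD organoids had an adjusted p of 0.0726 (edgeR).

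*Slc8a2* and *Slc26a9* were called lower. *Slc8a2*, a sodium-calcium exchanger known from brain, was at 13.4 and 11.6 CPM at day 5, 11.8 and 12 at day 10, 10.6 and 11.3 at day 20, 1.71 and 1.28 in CD organoids and 1.13 and 1.02 in adult mCD. All 6 UB organoid libraries were thus above all 4 libraries of CD organoids and adult mCD. The log2 fold change was -2.93 against day 10 (SE 0.20, adjusted p = 3.20e-08, edgeR) and -2.82 against day 20 (SE 0.21, adjusted p = 7.24e-08, edgeR). In the same step *Slc8a1*, its paralogue in the connecting tubule, moved the other way.

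*Slc26a9*, a chloride channel known from stomach and airway, was highest at day 20. Its level was 1.41 and 1.22 CPM at day 5, 0.436 and 1.35 at day 10, 8.07 and 6.21 at day 20, 0.0712 and 0.160 in CD organoids and 0.0754 and 0.157 in adult mCD, where all 4 libraries had 1 or 2 counts. It rose from day 10 to day 20 by 2.91 on the log2 scale (SE 0.39, adjusted p = 7.62e-05, edgeR), and by 2.38 without day 10 replicate 1 and 3.89 without day 10 replicate 2. Its day 20 mean was 31.4 times the limit of detection in CD organoids. Its day 10 mean was 3.93 times that limit, which is under the 4-fold of the threshold. The log2 fold change of CD organoids was -5.43 against day 20 (SE 0.61, adjusted p = 2.26e-06, edgeR). Against day 10 it was -2.51 (SE 0.78, adjusted p = 0.00593, edgeR). The call against day 10 was lost when CD organoid replicate 1, CD organoid replicate 2 or day 10 replicate 2 was left out (log2 fold change -2.16, -2.94 and -1.52).

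*Slc12a1*, the sodium-potassium-chloride cotransporter NKCC2, was called in CD organoids from few counts. It was at 0.0427 and 0 CPM at day 5, 0.238 and 0.0729 at day 10, 0.121 and 1.45 at day 20. CD organoids had 0.570 and 2.73 CPM, and these libraries held 8 and 34 counts. The log2 fold change from day 10 to CD organoids was 2.996 (SE 0.90, adjusted p = 0.00683, edgeR). Without CD organoid replicate 2 it was 1.62, with an adjusted p of 0.239 in edgeR, and without day 10 replicate 2 it was 2.49 and no longer called. DESeq2, limma and 2 other settings did not call it either. In replicate 2 of day 20 and of CD organoids, *Slc12a3* (0.463 and 1.44 CPM), *Umod* (1.92 and 2.41 CPM) and the proximal tubule gene *Slc34a1* (1.59 and 2.33 CPM) were also above their levels in replicate 1. Their part in the *Slc12a1* value was not tested.

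**Figure D3:**
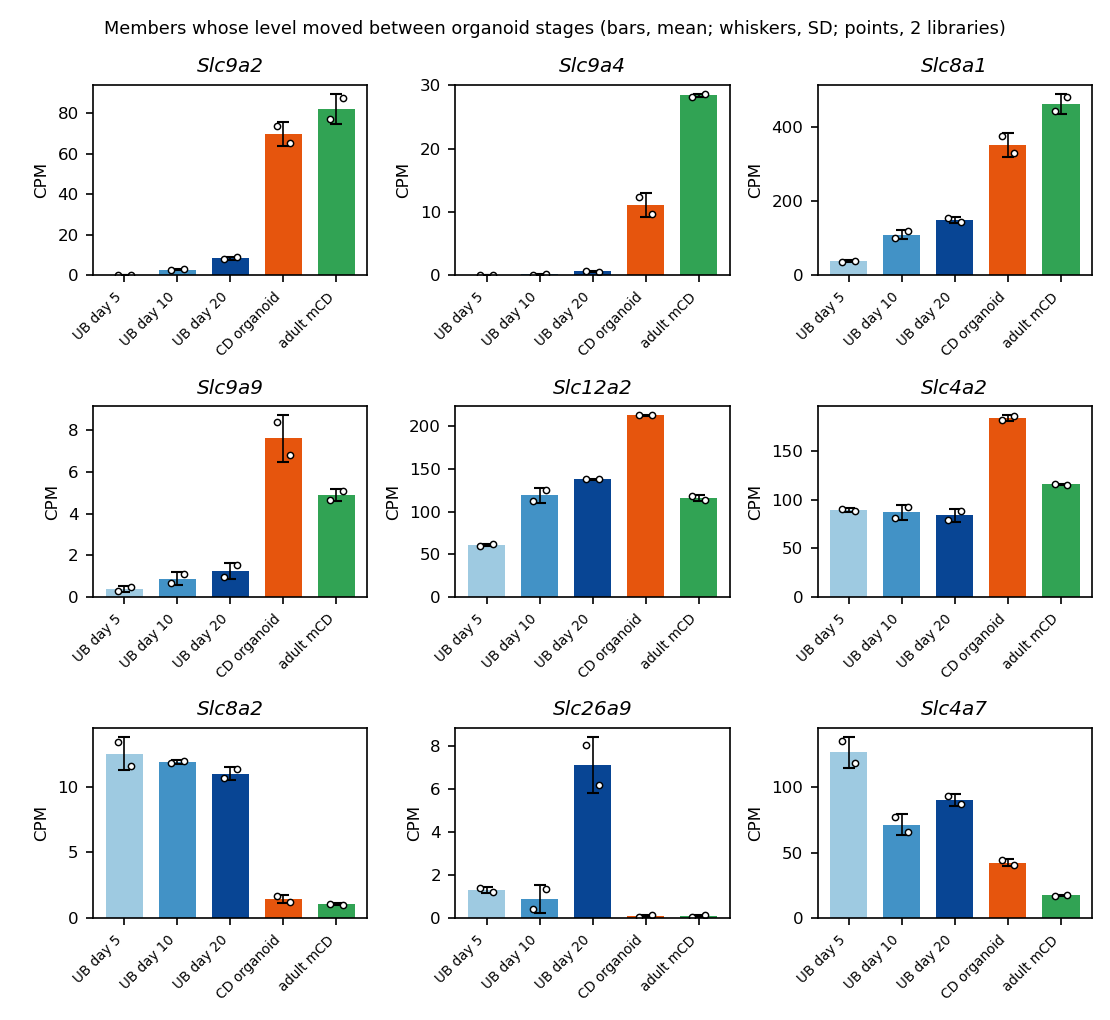
CPM of 9 members in the 5 groups on linear axes from 0, with bars for the mean, whiskers for the SD and points for the 2 libraries. *Slc9a2*, *Slc9a4* and *Slc8a1* step up from day 5 to CD organoids, *Slc9a9*, *Slc12a2* and *Slc4a2* are highest in CD organoids, and *Slc8a2*, *Slc26a9* and *Slc4a7* are higher in UB organoids.

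At a looser threshold, an adjusted p up to 0.05 in edgeR with no limit on the fold, 23 members differed between CD organoids and day 10 UB organoids, the 6 already called among them, 15 higher and 8 lower, where 47.2% of all genes did (22.1% higher and 25.2% lower). Against day 20 the same looser threshold was passed by 12 members higher and 8 lower in CD organoids, and by 42.2% of all genes (21% higher and 21.3% lower). *Slc8a1*, the sodium-calcium exchanger NCX1, was at 36.6 and 39.8 CPM at day 5, 101 and 118 at day 10, 155 and 145 at day 20, 374 and 329 in CD organoids and 442 and 481 in adult mCD. With TMM factors *Slc8a1* stood in a strict order of groups without overlap. The order of CD organoids and adult mCD rests on that scaling, as given below. *Slc12a2*, which encodes NKCC1, the basolateral relative of NKCC2, was at 59.7 and 61.9 CPM at day 5, 113 and 126 at day 10, 139 and 138 at day 20, 213 and 213 in CD organoids and 119 and 114 in adult mCD. *Slc4a2*, the chloride-bicarbonate exchanger AE2, was at 90.6 and 88.0 CPM at day 5, 81.5 and 92.5 at day 10, 79.2 and 88.6 at day 20, 182 and 186 in CD organoids and 116 and 116 in adult mCD. Both *Slc12a2* and *Slc4a2* were higher in CD organoids than in any other group.

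Of the 36 members tested, 8 rose without overlap from day 5 to day 10, to day 20 and to CD organoids, where 4.21% of all genes did. Among them were *Slc4a5*, *Slc8a1*, *Slc9a2*, *Slc9a4*, *Slc9a7*, *Slc12a2* and *Slc26a2*, and this order was looked for after the values were seen. *Slc9a7* encodes an exchanger of the trans-Golgi network and lies on the X chromosome. It rose from 4.78 and 4.82 CPM at day 5 to 14.9 and 16.2 in CD organoids. Together, *Ddx3y*, *Eif2s3y*, *Kdm5d* and *Uty* of the Y chromosome came to at most 0.875 CPM in the day 5 and day 10 libraries and to between 230 and 295 CPM in the other 6. This difference is shared by every comparison of day 10 with day 20 or with CD organoids, and its part in the values of *Slc9a7* and of the other members was not tested. *Slc26a2*, the sulfate transporter of cartilage, rose from 26.3 and 26.4 CPM at day 5 to 119 and 124 in CD organoids. In all, 12 members had both CD organoid libraries above all 6 UB organoid libraries and 7 had both below, against 21.4% and 21.8% of all genes.

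The time course in UBCM moved few members far. From day 5 to day 10 only *Slc9a2* was called, against 3.41% of all genes (2.34% higher and 1.07% lower), and 17 members passed the looser threshold, 12 higher and 5 lower, against 32.6% of all genes (15.8% higher and 16.9% lower). The bicarbonate carrier *Slc4a7* fell from 135 and 118 CPM to 76.9 and 65.6, and the potassium-chloride cotransporters *Slc12a4*, *Slc12a5* and *Slc12a7* and *Slc26a10* were the other 4 lower at day 10. *Slc12a4* had 41.4 and 44.3 CPM at day 5 and 15.2 and 11.8 at day 10. From day 10 to day 20 only *Slc26a9* was called, against 3.39% of all genes (1.66% higher and 1.73% lower), and 13 members were higher and 2 lower at the looser threshold, against 29.0% of all genes (13.0% higher and 16.0% lower). *Slc26a8*, known from testis, was at 6.31 and 5.68 CPM at day 20 and at most 2.04 CPM in the other 8 libraries.

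The second comparison set CD organoids against adult mCD. Of the 36 members tested, 9 were called, all 9 higher in adult mCD, against 14.3% of all genes (9.84% higher and 4.5% lower). These were *Slc9a3*, *Slc4a4*, *Slc26a1*, *Slc12a1* and *Slc12a3*, which belong to segments upstream of the collecting duct, and *Slc4a5*, *Slc4a10*, *Slc4a11* and *Slc26a10*, which were given no segment. None of the 5 members assigned to the collecting duct was called. At the looser threshold 22 members were higher and 3 lower in adult mCD, where 49.8% of all genes differed (26.1% higher and 23.8% lower). The median log2 fold change was 0.69 over the members and 0.00 over all genes.

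*Slc12a1* of the thick ascending limb was at 1277 and 1343 CPM in adult mCD, far above the organoid libraries given above. Its log2 fold change over CD organoids was 9.64 (SE 0.35, adjusted p = 6.24e-11, edgeR). *Slc12a3*, the thiazide-sensitive sodium-chloride cotransporter NCC, was at 0.128 and 0.122 CPM at day 5, 0.0793 and 0.146 at day 10, 0 and 0.463 at day 20, 0.285 and 1.44 in CD organoids and 398 and 434 in adult mCD. The difference between adult mCD and CD organoids was 8.88 (SE 0.27, adjusted p = 1.48e-11, edgeR). CD organoid libraries thus held 0.0435% and 0.208% of the adult mean of *Slc12a1* and 0.0685% and 0.347% of that of *Slc12a3*.

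*Slc9a3*, the apical sodium-proton exchanger NHE3 of the proximal tubule, was at 0 and 0.0408 CPM at day 5, 0.0396 and 0.146 at day 10, 0.303 and 0.0661 at day 20, 0.214 and 0.160 in CD organoids and 169 and 178 in adult mCD. Its adult mean was 763 times the limit of detection in CD organoids, where it had 3 and 2 counts. The log2 fold change from the fit was 9.48 (SE 0.24, adjusted p = 3.13e-12, edgeR). *Slc26a1*, a basolateral sulfate exchanger, was at 0.598 and 0.530 CPM at day 5, 1.55 and 1.64 at day 10, 2.85 and 3.24 at day 20, 2.14 and 2.41 in CD organoids and 127 and 151 in adult mCD, a log2 difference of 5.90 between the last groups (SE 0.15, adjusted p = 3.26e-12, edgeR). *Slc26a1* shares 141 exon bases with *Idua* on the opposite strand, which was at 15.4 and 11.8 CPM in CD organoids and adult mCD by group mean.

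*Slc4a4*, the sodium-bicarbonate cotransporter NBCe1, was well above the limit of detection in every library. It was at 69.6 and 77.7 CPM at day 5, 105 and 63.7 at day 10, 82.9 and 82.1 at day 20, 33.9 and 35.8 in CD organoids and 527 and 624 in adult mCD. CD organoids were below all 6 UB organoid libraries, and adult mCD was above them. The adult level exceeded that of CD organoids by 4.04 on the log2 scale (SE 0.19, adjusted p = 7.67e-10, edgeR). *Slc26a6*, an anion exchanger of the proximal tubule brush border, moved less, from 5.41 and 5.37 CPM in CD organoids to 12.5 and 12.2 in adult mCD (log2 difference 1.19, SE 0.18, adjusted p = 8.25e-05, edgeR). In UB organoids it was at 5.25 and 5.92 CPM at day 5, 6.34 and 8.02 at day 10, then 7.83 and 6.94 at day 20. *Slc9a4* was 1.36 higher in adult mCD (SE 0.20, adjusted p = 8.11e-05, edgeR), which is under 4-fold. It shares 764 exon bases with *Gm37435* on the opposite strand, whose mean was 1.23 CPM in adult mCD.

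**Figure D4:**
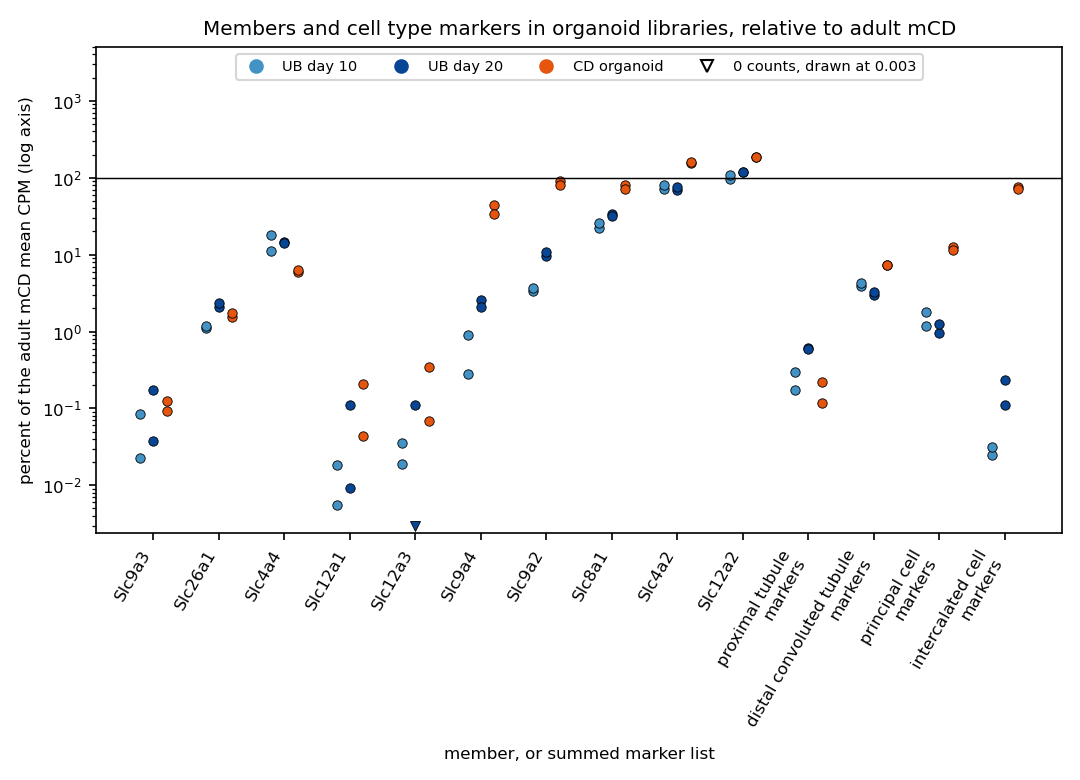
Level of 10 members and 4 summed marker lists in day 10, day 20 and CD organoid libraries, as a percent of the adult mCD mean on a log axis, with 1 point for each library. In CD organoids *Slc9a3*, *Slc12a1* and *Slc12a3* lie below 0.4% of the adult mean. The proximal tubule markers lie there at 0.119% and 0.220%, and the distal convoluted tubule markers at 7.32% and 7.22%. The thick ascending limb markers, not drawn, were at 6.53% and 6.94%. In the same libraries *Slc9a2*, *Slc8a1*, *Slc4a2* and *Slc12a2* lie between 71.3% and 183%.

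Summed, the proximal tubule, thick ascending limb and distal convoluted tubule lists were also higher in adult mCD than in CD organoids. *Ppp1r1b* of the thick ascending limb list went the other way, as given above. *Wnk4* of the distal convoluted tubule list was at 353 and 339 CPM in adult mCD. In CD organoids the proximal tubule list summed to 6.76 and 12.5 CPM, with *Slc5a2* at 0 in replicate 1, and the distal convoluted tubule list to 158 and 156 CPM, of which *Wnk4* made up 153 and 150, with *Pvalb* at 0 in replicate 2. Between the 2 adult libraries, proximal tubule markers were 1.22 times as high in replicate 2 as in replicate 1, *Slc4a4* 1.18 times, *Slc26a1* 1.19 times, *Slc9a3* 1.05 times and *Slc26a6* 0.974 times. Thick ascending limb markers were 1.06 times and *Slc12a1* 1.05 times as high, and distal convoluted tubule markers 1.04 times and *Slc12a3* 1.09 times. The part of RNA from these segments in the 5 calls was not tested.

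Promoters of 3 adult carriers are shown, since *Slc12a1*, *Slc12a3* and *Slc9a3* were abundant in adult mCD and each below 0.4% of the adult mean in CD organoids. They run up to the start of the gene in RefSeq or GENCODE M21, whichever lies first, 5′ to 3′, in RefSeq's sequence of GRCm38.p6, with capitals for a forkhead motif. Each is on the plus strand, at chr2:125152350-125152504 for *Slc12a1*, chr8:94328958-94329200 for *Slc12a3* and chr13:74121163-74121412 for *Slc9a3*.
Slc12a1: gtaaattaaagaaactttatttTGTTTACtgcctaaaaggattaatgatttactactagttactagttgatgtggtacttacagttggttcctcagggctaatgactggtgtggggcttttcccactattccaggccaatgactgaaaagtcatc
Slc12a3: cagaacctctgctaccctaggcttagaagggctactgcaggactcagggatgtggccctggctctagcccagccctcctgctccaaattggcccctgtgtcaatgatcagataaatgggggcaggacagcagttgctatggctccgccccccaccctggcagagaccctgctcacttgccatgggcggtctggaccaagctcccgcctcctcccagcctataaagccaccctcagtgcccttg
Slc9a3: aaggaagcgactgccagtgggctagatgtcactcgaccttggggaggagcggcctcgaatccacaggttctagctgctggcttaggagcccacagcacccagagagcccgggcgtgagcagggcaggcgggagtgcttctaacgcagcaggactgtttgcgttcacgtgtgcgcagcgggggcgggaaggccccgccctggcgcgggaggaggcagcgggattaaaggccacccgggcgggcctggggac

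In the 250 bases before the start, on both strands, the forkhead motif TGTTTAC was found in *Slc12a1* and not in the other 2, and in 3.17% of all 32851 promoters. The HNF1 motif GTTAAT (6.43% of all promoters) and the estrogen-related receptor motif AAGGTCA (4.08%) were in none of the 3. RefSeq promoters of 29 of the 38 members were used, any on chromosome 18 having been left out of this count. In their 37 windows the 3 motifs were found in 2, 2 and 1 windows (HNF1, forkhead and estrogen-related receptor). The table used holds none for *Slc9a2* and *Slc9a4*.

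Among the members with no segment, *Slc4a5*, the sodium-bicarbonate cotransporter NBCe2, was at 2.22 and 2.00 CPM at day 5, 4.12 and 5.54 at day 10, 6.67 and 7.01 at day 20, 9.47 and 8.98 in CD organoids and 66.7 and 48.6 in adult mCD. It had a wide spread between the adult libraries, and yet both lay above the other 8 (log2 difference from CD organoids 2.64, SE 0.18, adjusted p = 2.67e-08, edgeR). *Slc4a11*, known from the corneal endothelium, was at 0.939 and 1.39 CPM at day 5, 1.31 and 1.75 at day 10, 1.46 and 2.58 at day 20, 3.99 and 3.37 in CD organoids and 24.9 and 27.0 in adult mCD (log2 difference 2.80, SE 0.24, adjusted p = 3.81e-07, edgeR). *Slc4a10*, a sodium-coupled bicarbonate carrier known from neurons and the choroid plexus, was at 0.0854 and 0 CPM at day 5, 0.119 and 0.0365 at day 10, 0.0607 and 0.198 at day 20, 0 and 0.0802 in CD organoids and 9.80 and 9.27 in adult mCD. It had at most 3 counts in each organoid library, and its adult mean was 42.0 times the limit of detection in CD organoids. The log2 difference from CD organoids was 6.70 (SE 0.68, adjusted p = 3.03e-07, edgeR).

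*Slc26a10* was at 2.22 and 2.24 CPM at day 5, 0.753 and 0.839 at day 10, 0.667 and 0.859 at day 20, 0.285 and 0.321 in CD organoids and 4.97 and 4.72 in adult mCD (log2 difference 3.78, SE 0.36, adjusted p = 5.79e-07, edgeR). It shares 715 exon bases with *B4galnt1* on the opposite strand, which was at 32.2 and 31.6 CPM in CD organoids and adult mCD by group mean. The kit named in the study's methods keeps the strand and the one in the labels may not, so reads from the 2 genes may not be told apart.

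The 5 collecting duct members changed less than 4-fold and in both directions. *Slc12a7*, the potassium-chloride cotransporter KCC4, was at 144 and 156 CPM at day 5, 81.1 and 84.3 at day 10, 92.5 and 89.6 at day 20, 86.1 and 100 in CD organoids and 169 and 169 in adult mCD. *Slc4a8*, a sodium-driven chloride-bicarbonate exchanger of IC, was at 43.3 and 48.7 CPM at day 5, 38.7 and 49.9 at day 10, 74.4 and 74.7 at day 20, 55.1 and 59.4 in CD organoids and 97.3 and 91.3 in adult mCD. *Slc26a11*, an anion transporter of IC, was at 8.03 and 9.34 CPM at day 5, 7.02 and 7.73 at day 10, 8.98 and 9.52 at day 20, 9.11 and 9.06 in CD organoids and 16.7 and 14.9 in adult mCD.

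These 3 were higher in adult mCD than in CD organoids, by 0.86 (SE 0.08, adjusted p = 8.02e-07), 0.72 (SE 0.11, adjusted p = 8.46e-05) and 0.79 (SE 0.15, adjusted p = 0.000617) on the log2 scale in edgeR. *Slc12a2* and *Slc4a2* were lower in adult mCD, with log2 fold changes of -0.87 (SE 0.07, adjusted p = 2.43e-07) and -0.66 (SE 0.08, adjusted p = 9.34e-06) in edgeR. *Slc4a2* shares 1141 exon bases with *Fastk* on the opposite strand, which was at 78.8 and 93.4 CPM in CD organoids and adult mCD by group mean. *Slc8a1* of the connecting tubule was 0.39 higher in adult mCD (SE 0.09, adjusted p = 0.00289, edgeR). When libraries were scaled by their totals alone, the median of all genes moved by -0.34 and *Slc8a1* stood at -0.0015, so that its direction rests on the scaling.

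**Figure D5:**
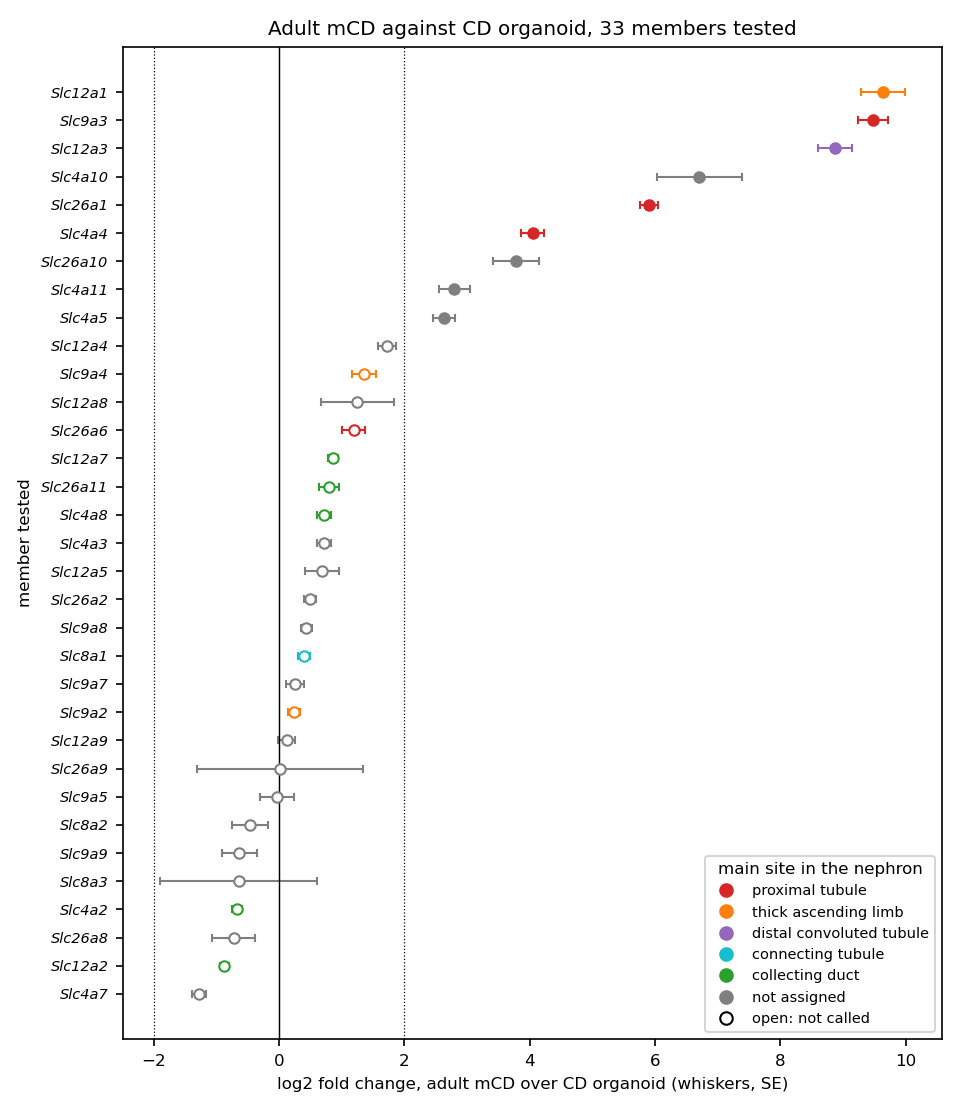
Log2 fold change of adult mCD over CD organoids for 33 of the members tested, with whiskers for the SE, colours for the main site in the nephron and filled points for members called. The 6 largest changes are those of *Slc12a1*, *Slc9a3*, *Slc12a3*, *Slc4a10*, *Slc26a1* and *Slc4a4*, and the 5 collecting duct members lie between -0.87 and 0.86.

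Levels of different members were compared per kilobase of merged exons. *Slc12a7* was highest at day 5 (11.8 CPM per kb), *Slc4a2* in CD organoids (22.1) and *Slc12a1* in adult mCD (227). The next in adult mCD were *Slc4a4* (53.2), *Slc12a3* (37.4), *Slc26a1* (34.2) and *Slc9a3* (31.5), so that the 5 highest members of the adult libraries were all carriers of upstream segments. In CD organoids *Slc12a2* (19.5) and *Slc8a1* (18.7) were also near the top. Divided by the longest transcript instead, *Slc4a2* was highest at day 10 and *Slc12a2* at day 20, which merged exons did not give, and in adult mCD *Slc12a3* (96.5) passed *Slc4a4* (72.5).

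The 22 members tested but never called also include *Slc4a3*, *Slc8a3*, *Slc9a5*, *Slc9a8*, *Slc12a8* and *Slc12a9*. Of these, *Slc9a8*, an exchanger of the Golgi, ranged over the 10 libraries from 37.8 to 70.6 CPM and *Slc4a3*, the anion exchanger AE3, from 16.7 to 51.6 CPM. *Slc9a5* ranged from 2.12 to 5.39 CPM and *Slc12a9* from 14.3 to 28.7 CPM, while *Slc8a3* and *Slc12a8* were below 1.8 CPM in every library.

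Of 34 regulators and partners of these carriers, 33 were tested. In CD organoids 6 were called higher and 1 lower than at day 10, against 4.96% and 5.71% of all genes, and 5 higher and 1 lower than at day 20, against 4.74% and 4.73%. *Sgk1*, the aldosterone-induced kinase that acts on sodium carriers and channels, rose from 0.749 ± 0.153 CPM (SD, n = 2) at day 5 to 4.80 ± 0.683 at day 10, 26.8 ± 3.63 at day 20 and 174 ± 5.82 in CD organoids, with a log2 fold change over day 10 of 5.16 (SE 0.12, adjusted p = 2.09e-12, edgeR). *Nedd4l*, the ubiquitin ligase of the epithelial sodium channel, rose from 124 ± 4.05 CPM at day 10 to 522 ± 1.39 in CD organoids (SD, n = 2). *Bsnd*, which encodes barttin, went from 0.204 ± 0.176 to 51.9 ± 4.01 CPM (SD, n = 2). The carbonic anhydrases *Car2*, against day 10, and *Car12*, against day 20, rose as well, and *Wnk3*, a kinase upstream of the Slc12 cotransporters, fell from 15.3 ± 2.13 CPM at day 10 to 3.45 ± 0.350 (SD, n = 2).

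In adult mCD against CD organoids, 11 of the 33 were called higher and 2 lower, against 9.84% and 4.5% of all genes. *Pdzk1*, a scaffold of the proximal tubule brush border, was at 244 ± 28.1 CPM in adult mCD and 0.196 ± 0.176 in CD organoids, and *Car4*, a membrane carbonic anhydrase, at 97.1 ± 5.91 and 0.0401 ± 0.0567 CPM (SD, n = 2). *Car14*, *Car15*, *Slc9a3r2*, the scaffold NHERF2, *Car2* and the proton pumps *Atp4a* and *Atp12a* were among the others called higher with at least 10 CPM in either group. *Atp12a* reached 109 ± 0.0498 CPM (SD, n = 2) against 18.4 ± 2.56 in CD organoids. The kinase *Wnk3* was the other one lower besides *Wnk2*, which fell from 109 ± 8.14 CPM in CD organoids to 7.54 ± 0.00485 in adult mCD (SD, n = 2). Over the time course, *Sgk1* and *Tesc*, which encodes the calcium-binding protein tescalcin, were called higher at day 10 than at day 5, and *Sgk1* alone higher at day 20 than at day 10.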

How the data were processed

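RNA-seq libraries of 5 groups with 2 libraries each were analysed from the table the authors deposited. Its deposited counts are whole-number reads per gene. The sources differ on how the authors made them. The methods name Partek Flow, with trimmed reads aligned by STAR (mm10) and quantified on GENCODE M24 by an E/M model, and the submitters' processing notes name FastQC 0.11.8, cutadapt 2.5, Trimmomatic 0.36, STAR and edgeR 3.28.1 on GRCm38.p6. How reads of near-identical genes were divided is therefore not known. Beside them the authors deposited RPKM values and TMM values, a signal of counts scaled to a common total. The deposited RPKM were not used, since the deposited lengths lie within 5% of the summed length of all transcripts for 98.4% of genes and are 1.01 to 5.83 times the merged exon length among the members. Lengths and positions came from GENCODE M21.

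Counts were fitted in edgeR 4.0.16 (R 4.3.3) by quasi-likelihood over all 10 libraries, with TMM factors (0.792 to 1.12), Benjamini-Hochberg adjustment and a prior count of 1, over 24410 genes with at least 10 counts in all. The dispersion shared by all genes was 0.00831, with a median of 7.90 prior degrees of freedom. SEs were derived from the test statistic and are approximate. On simulated counts for CD organoids against day 10 UB organoids, 192 of 200 genes changed 8-fold were recovered among 23805, with 0 false calls. Every simulated gene had the shared dispersion, and the changed genes had a mean of at least 10 counts. Spread that differs between genes or groups was thus not covered, nor were changes in genes with a lower mean. DESeq2 1.42.0 and limma 3.58.1 on log2 TMM values were among the alternatives. Figures were drawn with matplotlib 3.10.9.

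Named with all values were members called in a comparison or assigned to a segment. The other members were named by range, with a few more chosen after their values were seen, and of the regulators those called with at least 10 CPM in either group. The members, lists and thresholds were chosen with earlier results of these data known. Human organoids and the primary ureteric bud cells were not analysed here, and a few genes, among them 3 members left out of 2 figures, are not reported here.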

Additional observations from a re-analysis of the deposited data

How the results depend on the processing

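The number of members called was 1, 1, 6, 5 and 9 in the 5 comparisons (day 10 against day 5, day 20 against day 10, CD organoid against day 10, CD organoid against day 20, adult mCD against CD organoid). At the looser threshold, an adjusted p up to 0.05 with no limit on the fold, it was 17, 15, 23, 20 and 25. Day 10 against day 5 gave 2 with library totals alone, without the filter on low counts and with limma, and day 20 against day 10 gave 2 with DESeq2. With 1 library left out, where a lone library is assumed to vary like the others, the counts were 1 to 2, 1 to 3, 4 to 6, 5 to 6 and 9 to 9, with 2 without day 10 replicate 1 and 3 without day 10 replicate 2 in the first 2 comparisons. No pairing by replicate number was seen, with correlations of same-numbered deviations between -0.191 and 0.0978 over 10538 genes with a mean of at least 10 CPM. Such correlations cannot show how the libraries were made. A replicate block gave 1, 1, 7, 5 and 9.

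Of 31 log2 fold changes of members, 22 of them called, 27 kept their direction and side of the threshold in every alternative run. *Slc12a1* in CD organoids against day 10 lost its call with edgeR's own expression filter (3.02), with only the 2 groups in the fit (3.08), with DESeq2 (3.47), with limma (2.81) and without either of the libraries named above. *Slc26a9* in the same comparison lost its call with a prior count of 5 (-1.61) and with only the 2 groups (-2.50), beside the libraries named above. *Slc8a1* in adult mCD against CD organoids reversed to -0.0015 with library totals alone and to -0.00019 with limma, and *Slc9a2*, not called, to -0.16 with both, while the median of all genes moved by -0.34 and -0.36. Summed CPM of the 6 connecting tubule and collecting duct members, adult mCD minus CD organoids, reversed from 65.2 to -174 with library totals alone, and that of all 38 members went from 2892 to 1902, an alternative added after the data were seen. The cause of these changes beyond the scaling was not tested. Between day 10 and day 5, library totals alone moved that median by 0.14. With 2 libraries per group, the tests lean on the spread shared over all groups, and levels near 3 counts cannot be ranked.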
